A study of Mus musculus with 4 samples.

Results

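Stress and inflammation genes were among those that differed most between arrays when hepatocytes lacking Drp1 were given palmitate. Differences of similar size were read for other genes, such as Prmt1 (10.6-fold higher) and Prrc2a (10.5-fold lower), for which the untreated Drp1LiKO array alone differed from the other 3 arrays of the series. Hmox1 and the 2 inducible heat shock genes Hspa1a and Hspa1b were more than 8-fold higher by their brightest probes. So were the cytokine genes Il1b and Il6 and the chemokine genes Cxcl3 and Cxcl5. For Hmox1 the untreated Drp1LiKO array was the lowest of the 4, and a second, dim probe differed by only 0.12 (log2). Genes of fat metabolism, drug metabolism and the respiratory chain mostly differed by far less than 2-fold. The data compared are 1 microarray of palmitate-treated and 1 microarray of untreated Drp1LiKO hepatocytes, which are 2 of the 4 arrays of the series. Every gene measured on both was compared, and the other 2 arrays, from control hepatocytes, are given for reference.

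Drp1, the product of Dnm1l, is a dynamin-like GTPase that is recruited to the outer mitochondrial membrane and divides mitochondria. Palmitate is a saturated fatty acid. In liver cells a load of saturated fat is known to stress the endoplasmic reticulum and mitochondria, and macrophages respond to it with inflammatory signals. Heat shock proteins refold damaged proteins, heme oxygenase 1 breaks down heme, and NF-kB is the transcription factor that turns on many cytokine and chemokine genes.

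Drp1LiKO mice carried 2 floxed Drp1 alleles and 1 copy of a transgene that makes Cre recombinase from the albumin promoter, which is active in hepatocytes, and the controls were littermates with floxed alleles and no Cre. The mice were male and on the C57BL/6 background, and their age at cell isolation is not given in the sources used here. Primary hepatocytes were isolated by collagenase perfusion and low-speed centrifugation, plated on collagen and harvested 24 h after seeding, untreated or with 200 μM palmitate. How long the palmitate stayed on the cells used for the arrays is not given in the sources used here. Each of the 4 groups (control, control with palmitate, Drp1LiKO, Drp1LiKO with palmitate) is 1 array. There is therefore no replicate check, no test was run and no p-value is given. Both untreated arrays lay on 1 slide and both palmitate arrays on another, so palmitate and slide cannot be told apart.

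A level is given throughout as the log2 of an array's processed intensity relative to the 75th percentile of that array, so that 0 is the 75th percentile. A difference is the palmitate level minus the untreated level, and a difference of 1 is 2-fold. A gene counted as measured when its probe was well above background on both Drp1LiKO arrays, which held for 17853 of 37072 gene names (48.2%). Between 44.7% and 51.1% of probes were well above background on each of the 4 arrays, and no probe spot was saturated. Repeated spots of a probe on the same array varied with a median SD of 0.0372 (untreated) and 0.0379 (palmitate), while the differences of the 2 brightest probes of a gene were a median of 0.192 apart over 6058 genes. For 1 gene in 10 the 2 probes were more than 0.63 apart. The 7 labelling spikes well above background, which are added in fixed amounts before labelling, differed by 0.121 to 0.252 between the Drp1LiKO arrays.

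The hepatocyte label was borne out by its markers. All 15 hepatocyte markers were well above background with palmitate and 14 without it, and Alb (albumin) stood at 9.03 untreated and 9.01 with palmitate. Macrophage markers were present too, with 17 of 18 well above background on both Drp1LiKO arrays. Their linear levels summed to 67.9 untreated and 64.9 with palmitate in Drp1LiKO, against 34.1 and 41.1 in control hepatocytes. Dnm1l read 1.07 untreated and 1.01 with palmitate in Drp1LiKO hepatocytes and 2.42 and 2.43 in control hepatocytes. Whether its probe lies in the deleted part of the gene was not settled here, so this is no check of the deletion.

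Of the measured genes, 313 (1.75%) were at least 2-fold higher and 119 (0.667%) at least 2-fold lower with palmitate, and 97.6% lay within 2-fold. Differences of at least 4-fold were seen for 35 genes upward and 20 downward, and of at least 8-fold for 10 and 3. The median difference over all measured genes was 0.013, with 52.2% of genes above 0. The 5th and 95th percentiles of the difference were -0.445 and 0.631. With the normexp background correction, which models the background and adds an offset, 137 genes were higher and 47 lower. Genes past 2-fold that were under it with normexp are given with that value where they are described.

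**Figure D1:**
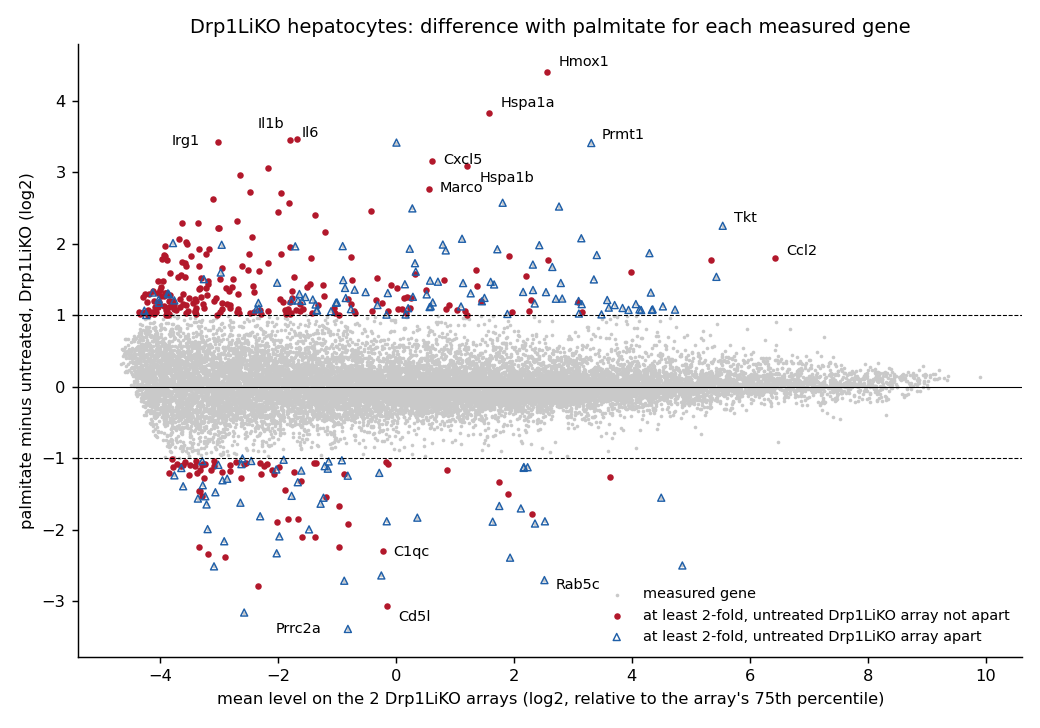
Palmitate minus untreated difference (log2, vertical axis) against the mean level on the 2 Drp1LiKO arrays (log2 relative to the 75th percentile of the array, horizontal axis), 1 point per measured gene, 1 array per group. Dashed lines mark 2-fold; red dots are genes past 2-fold and blue triangles those past 2-fold for which the untreated Drp1LiKO array alone differed from the other 3 arrays. Hmox1 lies highest at 4.40 and Prrc2a lowest at -3.39.

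Among the genes past 2-fold, some owed their difference to 1 array. An array was said to stand apart for a gene when it lay at least 1 log2 unit from the median of the other 3 while those 3 spanned less than 0.7. The untreated Drp1LiKO array stood apart for 102 of the 313 higher and 54 of the 119 lower genes, and the palmitate-treated Drp1LiKO array for 28 and 3. For the rest, 183 higher and 62 lower genes, no array stood apart. The median control difference was 0.205 over the 102 higher genes for which the untreated array stood apart, and 0.836 over the 116 measured in controls for which no array did. The rule itself holds the control difference of the 102 genes under 0.7, so no conclusion is drawn from this contrast. Where the untreated Drp1LiKO array stood apart for a gene past 2-fold, this is said beside it.

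The heat shock genes were led by the inducible HSP70 pair, which encode near-identical chaperones. Hspa1a stood at -0.34 in untreated and 3.50 in palmitate-treated Drp1LiKO hepatocytes, which is 14.2-fold higher, and at -1.48 and 3.33 in control hepatocytes. Hspa1b stood at -0.35 and 2.74 in Drp1LiKO, 8.52-fold higher, and at -0.25 and 2.91 in control hepatocytes. Both palmitate arrays were thus far above both untreated arrays for the 2 genes, and because the genes are near-identical their probes may read both transcripts. Of 26 measured genes of the list no other was past 2-fold: Bag3, a co-chaperone of HSP70, went from 3.69 to 4.27 (difference 0.58), and Hspb1, the small heat shock protein, from 8.06 to 8.23. The median of the list was 0.028. The abundant chaperone gene Hsp90ab1 read 8.13 and 8.14.

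Heme and iron genes held the largest difference of all. Hmox1, heme oxygenase 1, read 0.36 in untreated and 4.77 in palmitate-treated Drp1LiKO hepatocytes, which is 21.2-fold higher, and 3.20 and 4.43 in control hepatocytes. The untreated Drp1LiKO array was the lowest of the 4, and the palmitate-treated Drp1LiKO array read close to the palmitate-treated control array. A second Hmox1 probe did not show this difference: it was dim, at -4.48 untreated and -4.37 with palmitate (difference 0.12). On mm9 the 2 probes lie at chr8:77624406-77624466 and chr8:77620085-77620144. With all measured probes of Hmox1 averaged, its difference was 2.26, and 2 spots near the brighter spot were lit on the untreated Drp1LiKO array alone. The ferritin genes Fth1 and Ftl1, which store iron, differed by 0.12 and 0.16. Hamp, the iron hormone hepcidin, was at 3.66 and 4.58 (difference 0.92). Hebp1, a heme-binding protein, was 6.24-fold lower, from 1.07 to -1.57, with the untreated Drp1LiKO array apart. In all, 2 of 22 measured genes of the list were past 2-fold upward and 1 downward, with a median of 0.150.

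Other genes of oxidative defence differed little. Of 34 measured targets of NRF2, the regulator of antioxidant genes, only Tkt (transketolase) was past 2-fold, at 4.42 untreated and 6.67 with palmitate, and there the untreated Drp1LiKO array stood apart from control levels of 6.90 and 6.78. The median of that list was 0.086. The metallothionein genes Mt1 and Mt2, which bind zinc, differed by 0.09 and 0.20, whereas Mt3 was 2.45-fold higher with the untreated array apart (difference 0.93 with normexp).

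The cytokine genes that differed most upward, Il1b and Il6, were dim without palmitate. Il1b stood at -3.42 in untreated and 0.05 in palmitate-treated Drp1LiKO hepatocytes, a difference of 3.47, and a second probe differed by 2.73. Il6 went from -3.52 to -0.07, 10.9-fold higher, and its second probe differed by 3.46. In control hepatocytes Il1b and Il6 were not well above background untreated and read -1.91 and -3.37 with palmitate. For both genes the palmitate-treated Drp1LiKO array was the highest of the 4. Il11, a cytokine of the IL-6 family, was 4.49-fold higher, from -2.29 to -0.12. Control hepatocytes read -3.93 and -4.24 for it, and it was not well above background on the palmitate-treated control array. Ebi3, a subunit of IL-27 and IL-35, was 5.30-fold higher, with 4 spots near its spot lit on the untreated Drp1LiKO array alone, and Il1f9, now called Il36g, was 2.20-fold higher (difference 0.68 with normexp). Areg, an epidermal growth factor receptor ligand, was 2.52-fold lower, from 2.41 to 1.08. Tnf went from -2.06 to -1.51 (difference 0.55) by its brighter probe, differed by 1.63 by its second probe and by 1.09 with both averaged. In the list of cytokines, 5 of 25 measured genes were past 2-fold upward and 1 downward, and the median was 0.307. Among all measured genes 1.75% were past 2-fold upward and 0.667% downward. The median in control hepatocytes was 0.091, over the 19 of these genes that were measured on both control arrays. Il1b and Il6 are not among those 19, so the 2 medians cover different genes. Of the 14 cytokine genes on the array that were not measured in Drp1LiKO, 5 were well above background with palmitate alone. The other 9 were so on neither Drp1LiKO array, among them Ifng.

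CXC chemokines, some of which attract neutrophils, gave 4 genes past 2-fold upward of 11 measured and none downward, against 1.75% upward of all measured genes. The 4 were Cxcl5, Cxcl3, Cxcl1 and Pf4, and none of the 7 other measured ligands was past 2-fold. The list had grouped these 4 as neutrophil-attracting, but the place of Pf4 in that group was a choice of the list. No contrast between kinds of ligand is therefore drawn. The median of the list was 0.269. In control hepatocytes 4 of 10 measured genes of the list were past 2-fold upward, and the median was 0.310. Cxcl5 was at -0.96 in untreated and 2.19 in palmitate-treated Drp1LiKO hepatocytes, 8.92-fold higher, and control hepatocytes read -4.85, which was not well above background, and -1.44. Cxcl3 was at -3.71 and -0.65, 8.34-fold higher, with -4.63 and -3.02 in control hepatocytes. Cxcl1 was at 3.19 and 4.79, 3.04-fold higher, with 4.07 and 5.15 in control hepatocytes. The 2 palmitate arrays were the highest for Cxcl1 and Cxcl3, and for Cxcl5 the palmitate-treated Drp1LiKO array alone was above 0. Pf4 (platelet factor 4) was 2.40-fold higher (difference 0.98 with normexp). Cxcl2 was well above background with palmitate alone among the Drp1LiKO arrays, at least 3.66-fold higher. Cxcl11, an interferon-induced ligand, differed by 0.17 at a level near 8.

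CC chemokines, which attract monocytes and lymphocytes, had the highest median of the lists, 1.061 over 10 measured genes. In this list 5 genes were past 2-fold upward and none downward, against 1.75% upward of all measured genes. The median of the same list in control hepatocytes was 1.157, over the 9 of these genes measured there. Ccl2, the monocyte attractant MCP-1, went from 5.54 to 7.33, 3.47-fold higher, and from 7.09 to 8.37 in control hepatocytes. Ccl3 went from -1.65 to 0.80, 5.48-fold higher, and was at -1.72 in palmitate-treated control hepatocytes. Ccl7 (3.40-fold), Ccl9 (2.56-fold) and Ccl20 (2.46-fold) were also higher, Ccl20 by a difference of 0.81 with normexp. The median of the list was 0.802 with normexp and 0.443 with no filter on dim probes. For Ccl2 the control arrays were the higher pair, and for Ccl3 the Drp1LiKO arrays were. Ccl5, a T cell attractant, differed by 0.82.

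**Figure D2:**
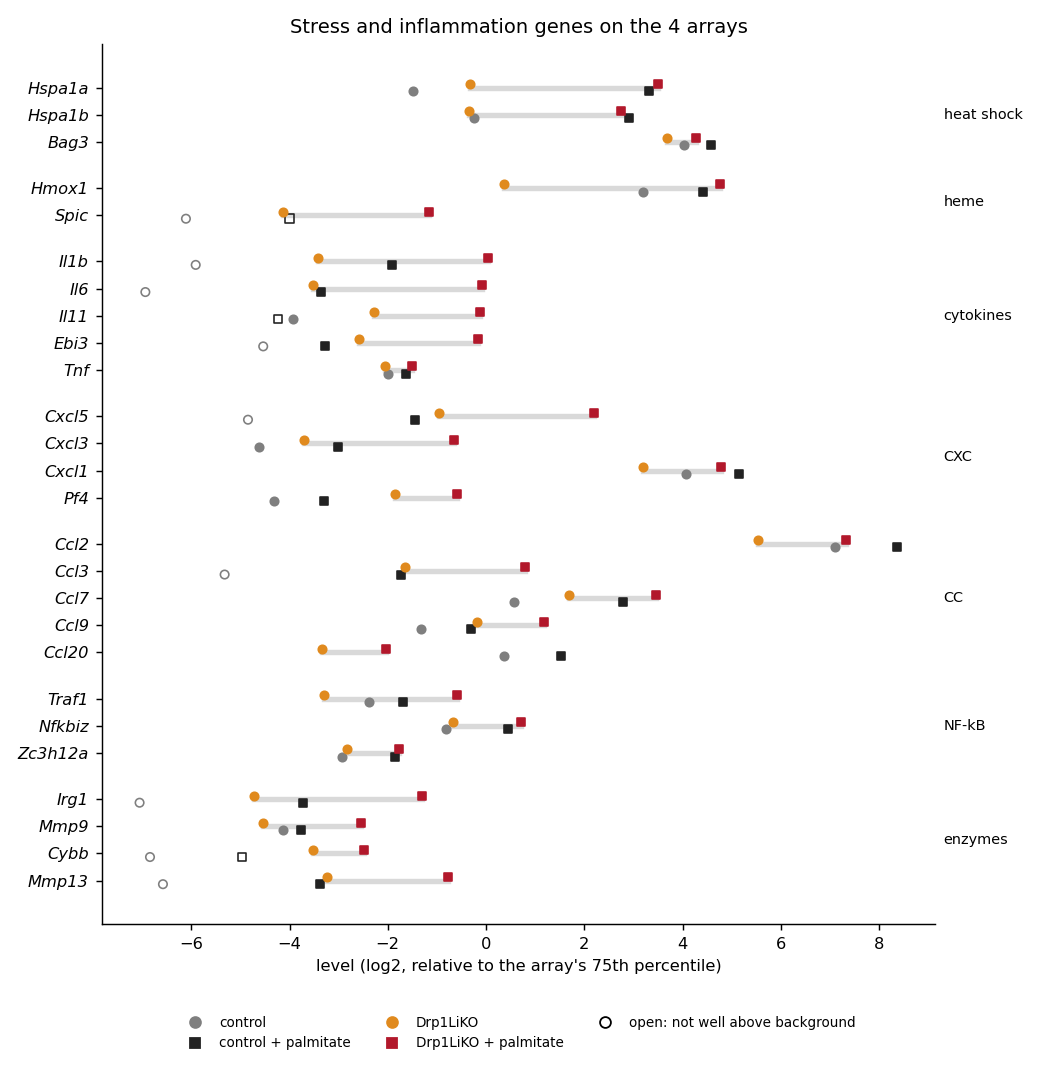
Levels of stress and inflammation genes on the 4 arrays (log2 relative to the 75th percentile of the array, horizontal axis; 1 gene per row). Circles are untreated and squares palmitate-treated arrays, grey and black are control, orange and red are Drp1LiKO, open symbols are not well above background, and the grey bar joins the 2 Drp1LiKO arrays. The red square lies to the right of the orange circle for every gene drawn, by 4.40 for Hmox1 and by 0.55 for Tnf.

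Of 15 measured inflammatory enzymes, 3 were past 2-fold upward and 4 were below 0, against 1.75% and 47.8% of all measured genes. Irg1, now called Acod1, which makes the antibacterial metabolite itaconate, went from -4.73 to -1.30, a difference of 3.42. Mmp9 (gelatinase B) went from -4.55 to -2.55, 3.98-fold higher. Mmp13, a collagenase from the separate list of proteases and the plasminogen system, went from -3.23 to -0.78, 5.46-fold higher. In that list it was the only 1 of 23 measured genes past 2-fold, 13 were below 0 and the median was -0.122. Cybb, a subunit of the phagocyte NADPH oxidase, was 2.06-fold higher, with a second probe at a difference of 1.34. With normexp Cybb and Mmp9 differed by 0.61 and 0.92. Control hepatocytes were not well above background for Irg1, Cybb and Mmp13 when untreated. The median of the enzyme list was 0.472, and Ptges, which makes prostaglandin E, differed by -0.01.

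Within the NF-kB pathway the inhibitors and feedback genes held every member past 2-fold, and the 5 subunit genes held none, with a median of 0.200. Traf1, a signalling adaptor of TNF receptors, went from -3.30 to -0.59, 6.55-fold higher, and from -2.38 to -1.69 in control hepatocytes. Nfkbiz, a nuclear inhibitor protein of NF-kB, was 2.61-fold higher and its second probe differed by 1.01. Zc3h12a, an RNase that destroys cytokine transcripts, was 2.10-fold higher, while its second probe differed by 0.35 and the brighter one by 0.68 with normexp. Ier3 was 3.58-fold higher with the untreated Drp1LiKO array apart. Rela, which encodes the p65 subunit, differed by 0.07. Over the whole list 4 of 32 measured genes were past 2-fold upward, against 1.75% of all measured genes. The median was 0.321, against 0.175 over the 31 measured in control hepatocytes.

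Receptors and downstream brakes split. Marco, a scavenger receptor of macrophages, went from -0.82 to 1.95, 6.82-fold higher, and from -3.26 to 0.33 in control hepatocytes. Fpr1 and Fpr2, which sense formylated bacterial peptides, were 3.86-fold and 2.37-fold higher, and Fpr2 differed by 0.96 with normexp. Clec4e, a receptor for damaged cells, was well above background with palmitate alone, at least 11.1-fold higher, and Clec7a, a receptor for fungal glucan, was 4.72-fold lower. Toll-like receptor genes and their adaptors held none past 2-fold of 16 measured. Socs3, a brake on IL-6 signalling, went from -0.79 to 0.63, 2.69-fold higher, and from -0.81 to -0.57 in control hepatocytes. For Socs3 the palmitate-treated Drp1LiKO array stood apart from the other 3. Casp4, which starts pyroptosis, was 2.01-fold higher (difference 0.95 with normexp), and Nlrp3 was not well above background on either Drp1LiKO array. Cebpd, a transcription factor of the acute phase response, was 2.93-fold higher, from 1.42 to 2.97.

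Some of these genes carry the sequence motifs bound by the factors named above. The 250 bases before the start of each gene were taken from the RefSeq table of GRCm38.p6 promoters for the heat shock, NF-kB, cytokine, chemokine, NRF2, heme and metallothionein genes past 2-fold, 26 genes of which 21 matched. Shown are the gene with the largest difference in the heat shock list and the 3 genes with an NF-kB match, with the match in capitals, 5′ to 3′ on the strand of the gene. The heat shock motif is GAANNTTC or TTCNNGAA and the NF-kB motif is GGGANTTTC, each searched on both strands. The stretches are chr17:34972157-34972406 (minus strand) for Hspa1a, chr5:30012864-30013113 (plus strand) for Il6, chr5:90890995-90891244 (plus strand) for Cxcl1 and chr5:90785851-90786100 (plus strand) for Cxcl3.
Hspa1a: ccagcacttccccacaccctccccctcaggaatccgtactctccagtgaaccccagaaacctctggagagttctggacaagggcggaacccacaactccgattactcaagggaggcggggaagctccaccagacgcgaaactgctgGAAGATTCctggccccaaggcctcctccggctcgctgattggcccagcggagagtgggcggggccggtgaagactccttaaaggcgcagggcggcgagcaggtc
Il6: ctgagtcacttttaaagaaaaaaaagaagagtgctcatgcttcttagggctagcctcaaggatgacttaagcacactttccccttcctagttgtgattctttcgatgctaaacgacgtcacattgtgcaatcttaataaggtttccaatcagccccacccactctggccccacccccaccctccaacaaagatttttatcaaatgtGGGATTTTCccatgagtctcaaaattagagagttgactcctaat
Cxcl1: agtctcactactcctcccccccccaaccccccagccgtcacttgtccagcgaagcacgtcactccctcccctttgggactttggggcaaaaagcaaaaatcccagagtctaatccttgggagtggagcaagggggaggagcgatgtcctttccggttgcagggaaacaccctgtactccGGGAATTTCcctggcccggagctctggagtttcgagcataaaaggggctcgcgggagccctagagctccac
Cxcl3: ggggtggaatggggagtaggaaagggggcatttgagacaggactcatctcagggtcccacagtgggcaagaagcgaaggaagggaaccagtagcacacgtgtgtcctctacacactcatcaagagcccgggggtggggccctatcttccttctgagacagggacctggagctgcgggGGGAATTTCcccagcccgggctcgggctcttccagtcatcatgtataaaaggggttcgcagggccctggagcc

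The heat shock motif lay 96 bases before the start of Hspa1a and at the same place in Hspa1b, whose stretch is identical at 247 of the 250 positions. The motif was held by 5 of the 21 genes and by 12.8% of all 32851 promoter stretches. The NF-kB motif lay 35 bases before the start of Il6, 62 before that of Cxcl1 and 64 before that of Cxcl3, and was held by 3 of the 21 genes and by 0.941% of all stretches. The antioxidant motif TGACNNNGC was held by none of the 21 genes and by 10.2% of all stretches, the AP-1 motif TGAGTCA by 2 genes and by 4.46%, and the metal motif (TGCACNC or TGCGCNC) by 1 gene and by 21.4%. Hmox1 and Cxcl5 are not among the 21 genes. A match is a description of the letters only.

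Macrophage genes did not share a direction. The 3 subunits of complement C1q were all lower: C1qc went from 0.92 to -1.38 (4.91-fold), C1qa from -0.32 to -2.42 (4.31-fold) and C1qb from -0.42 to -1.96 (2.91-fold). All 3 were well above background in untreated control hepatocytes and not in palmitate-treated ones. Cd68 and Cd14, general macrophage markers, differed by -0.15 and 0.02. The macrophage marker list had 3 of 17 measured genes past 2-fold downward, against 0.667% of all measured genes, none upward and a median of -0.146. In bulk samples, fewer cells of a type and less RNA per cell cannot be told apart.

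Kupffer cells are the resident macrophages of the liver, and their markers split between higher and lower. Cd5l, a secreted protein of tissue macrophages, went from 1.38 to -1.69, 8.42-fold lower, and from -1.45 to -3.44 in control hepatocytes. Folr2 (folate receptor beta) was 3.18-fold lower and Clec4f, a lectin of Kupffer cells, 2.28-fold lower (difference -0.50 with normexp). In contrast, Spic, a transcription factor of macrophages that recycle iron, went from -4.12 to -1.17, 7.75-fold higher, along with Marco. Both untreated arrays were above the palmitate array of the same genotype for Cd5l, Folr2 and Clec4f, and below it for Spic and Marco, although both control arrays were too dim for Clec4f and Spic to be called well above background, and Folr2 was not on the palmitate-treated one. Trem2, a lipid-sensing receptor of macrophages, was well above background without palmitate alone, at least 17.5-fold lower, and 2 spots near its spot were lit on the untreated Drp1LiKO array alone. The summed linear level of the Kupffer markers was 22.7 untreated and 24.8 with palmitate in Drp1LiKO, against 23.1 and 25.7 in control hepatocytes. Bright members weigh most in such a sum, such as Id3 at 2.90 and 3.33 (log2) in Drp1LiKO. It therefore does not tell whether dimmer markers such as Cd5l, Folr2 and Clec4f held their level. Other genes of myeloid cells among the 25 largest downward differences were Ly86 (4.72-fold, difference -0.93 with normexp) and Cd72 (4.31-fold), while Ms4a6c (6.16-fold) and Ms4a6d (5.92-fold) were among the 25 largest upward differences. The part of these macrophage genes in the cytokine and chemokine differences was not tested.

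Endothelial markers leaned lower. Of 12 measured, 11 were below 0 and 3 past 2-fold downward: Lyve1 (2.16-fold), Tie1 (2.14-fold) and Stab2 (2.10-fold). Over all measured genes 47.8% were below 0 and 0.667% at least 2-fold lower. The median of the list was -0.559, against -0.165 over the 9 genes measured in control hepatocytes, where none was past 2-fold. With normexp these 3 differed by -0.37 (Lyve1), -0.29 (Tie1) and -0.74 (Stab2). Stab1, another scavenger receptor of sinusoidal endothelium, was at 0.36 and 0.39. The summed level of endothelial markers was 16.5 untreated and 14.1 with palmitate. Stellate cell markers had no member past 2-fold of 11 measured and a median of -0.164. The neutrophil gene S100a8 was well above background with palmitate alone, at least 10.4-fold higher, and 9 of 12 neutrophil markers were well above background on neither Drp1LiKO array. Summed neutrophil markers were 37.0 untreated and 42.8 with palmitate, and Csf3r alone, a growth factor receptor gene of that list, stood at 5.16 and 5.35 (log2). Lymphocyte markers were mostly undetected, 10 of 15 on both arrays.

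**Figure D3:**
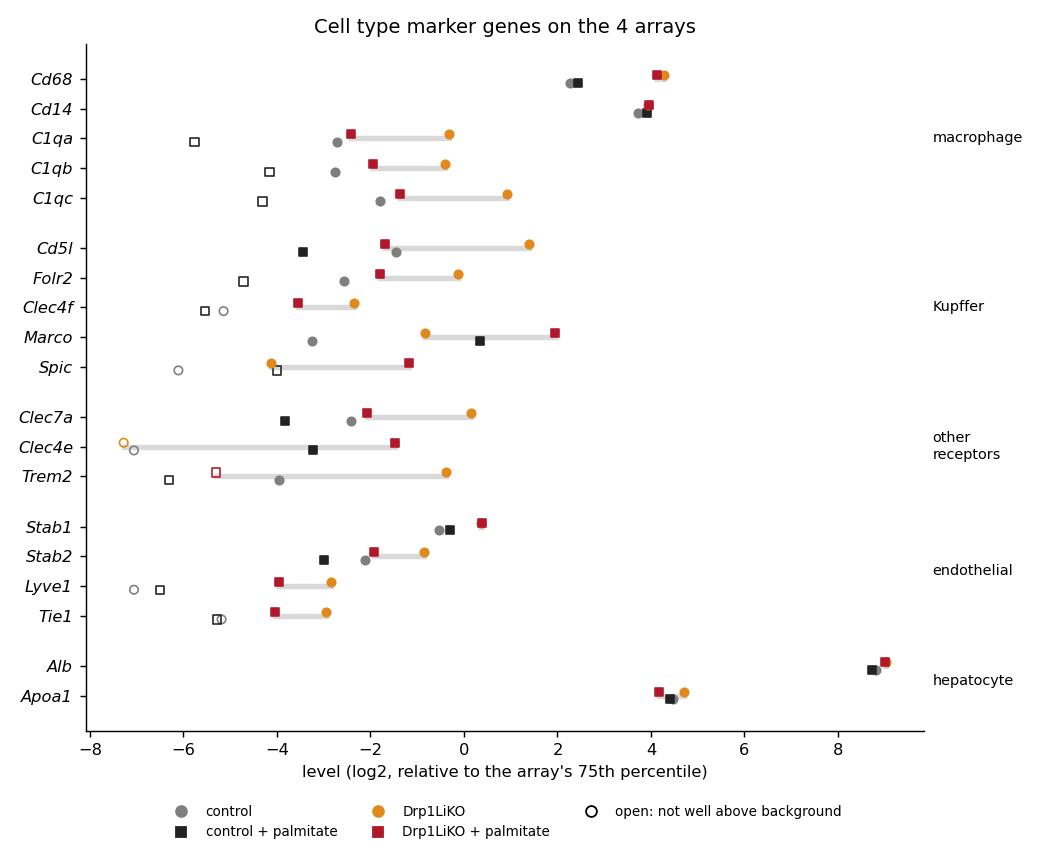
Levels of cell type marker genes on the 4 arrays (log2 relative to the 75th percentile of the array, horizontal axis; 1 gene per row, symbols as for the stress genes: circles untreated, squares palmitate-treated, grey and black control, orange and red Drp1LiKO, open symbols not well above background). The C1q genes, Cd5l, Folr2, Clec4f and Clec7a are lower and Marco, Spic and Clec4e higher with palmitate, while Cd68, Cd14, Stab1 and Alb barely differ.

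Interferon-stimulated genes, which encode antiviral proteins, mostly stayed within 2-fold in Drp1LiKO hepatocytes. With palmitate, 2 of 50 measured were past 2-fold in Drp1LiKO and 12 of 46 in control hepatocytes, with medians of 0.266 and 0.569, and the genotypes were not tested against each other. Bst2 (tetherin) went from 4.46 to 6.23, 3.41-fold higher, and Zbp1, a sensor of nucleic acids, from 1.44 to 2.48, 2.06-fold higher and just under 2-fold with normexp. The controls read -0.90 and 0.27 for Zbp1. Oasl1, an antiviral factor, was at 7.19 and 7.18 in Drp1LiKO hepatocytes and at 4.07 and 4.64 in control hepatocytes. Over all genes measured on the 4 arrays, 127 (0.765%) were at least 2-fold higher and 40 (0.241%) at least 2-fold lower with palmitate in control hepatocytes. Antigen presentation genes had 1 of 14 past 2-fold, Tap2, for which the untreated Drp1LiKO array stood apart.

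The secreted acute phase proteins of hepatocytes had no member past 2-fold of 28 measured, and a median of 0.068. The largest differences were in Hamp, in Lcn2 (lipocalin 2), which went from 5.56 to 6.36, and in Hp (haptoglobin), which went from 6.15 to 6.73. Serpina1a (alpha-1 antitrypsin) was at 9.24 and 9.35.

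Genes of the integrated stress response and of the endoplasmic reticulum leaned opposite ways, and none was past 2-fold. Of 31 integrated stress response genes, 25 were below 0 with a median of -0.177, against 47.8% of all measured genes below 0. All 19 measured target genes were below 0, with a median of -0.372, against -0.161 in control hepatocytes. Ddit4, an inhibitor of mTORC1, went from 4.50 to 3.63 with the untreated Drp1LiKO array apart, Fgf21 from -1.63 to -2.27, and Slc7a5, an amino acid transporter, from -3.23 to -4.01. Ddit3 (CHOP) differed by 0.06, with a second probe at -0.45, and Nupr1 by 0.22. Of 26 endoplasmic reticulum chaperone and unfolded protein response genes, 21 were above 0 with a median of 0.121, against 52.2% of all measured genes above 0. Hspa5 (BiP) differed by 0.42, though its other probes differed by -0.34 and -0.24, and Sdf2l1 went from 0.37 to 0.98.

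Genes that handle the fatty acid itself differed little. Acsl1 and Acsl4, which activate long-chain fatty acids, differed by -0.13 and -0.03. Cd36, a fatty acid transporter, was at -2.02 and -2.52. None of 18 uptake and activation genes was past 2-fold, and the median was -0.107. Of 20 measured lipid droplet proteins and lipases, Lpl alone was past 2-fold. Lpl (lipoprotein lipase) was 3.79-fold lower, from 0.14 to -1.78, but its 2 other measured probes differed by -2.16 and 0.52. Plin2, the main droplet coat protein of hepatocytes, was at 7.25 and 7.17, and Cidec, which fuses droplets, at 0.40 and -0.12.

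Fatty acid oxidation and PPAR-alpha target genes had a median of -0.122 over 40 measured. Only Slc25a20, the carnitine carrier of the mitochondrial inner membrane, was past 2-fold, at -2.69 and -0.73, and there the untreated Drp1LiKO array stood apart from controls at -0.77 and -0.67. Angptl4, a PPAR target, differed by 0.28, and Acaa2, a thiolase, by -0.11. Lipid and sterol synthesis genes, 36 and 25 measured, had no member past 2-fold by its brightest probe. A dimmer Fads2 probe differed by 1.17 and a dimmer Acacb probe by 1.01, where the brightest differed by 0.43 and -0.44. The remaining measured probes of these genes were under 2-fold. Lpin1 (0.34 to -0.36), a phosphatidate phosphatase, differed most among the former by its brightest probe, while its 2 other measured probes differed by 0.14 and 0.29, and Insig2 (2.70 to 2.28) and Abcg1 (-1.09 to -1.51) among the latter.

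Most cytochrome P450 genes of families 1 to 3 were slightly lower. Of 33 measured, 31 were below 0, against 47.8% of all measured genes, none was past 2-fold in either direction and the median was -0.198. With 3 partner genes (Por, Nr1i3 and Ahr) the list median was -0.191, against -0.112 over the 34 genes measured in control hepatocytes. Cyp1a2, which oxidises caffeine, was at 0.03 and -0.61, while Nr1i3 (CAR) and Ahr, receptors that regulate P450 genes, were at -2.89 and -1.96 and at 0.65 and 1.32. Bile acid genes had a median of -0.201 over 18 measured, with no member past 2-fold. Glucose metabolism (38 measured), the urea cycle and amino acid breakdown (23), apolipoproteins (17), hepatocyte transcription factors (19) and the growth hormone axis (15) had no member past 2-fold either. Igfbp1 (3.31 to 2.73), Ass1 (5.50 to 4.84, with the untreated Drp1LiKO array apart), Apoa5 (1.63 to 0.96) and Igfbp3 (2.00 to 1.30) were among the lower members, and Igfbp2 (2.01 to 2.74) among the higher.

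Genes of the mitochondria themselves differed little. None of 32 nuclear-encoded respiratory chain genes was past 2-fold, and they ranged from -0.225 (Ndufs1) to 0.135 around a median of -0.002. Of 17 measured genes of fission, fusion and mitophagy, which include Dnm1l, the largest difference was 0.48 in Park2 (parkin), and Opa1, which fuses inner membranes, was at 2.12 and 1.87. Cell division genes had a median of 0.098 over 32 measured, with Cenpf at -3.41 and -2.74. Of 27 apoptosis and p53 genes only Bax was past 2-fold, at 3.36 and 5.23, and its second probe differed by 1.81. The untreated Drp1LiKO array stood apart for Bax from control levels of 4.96 and 5.10. YAP targets and cytoskeletal genes, 24 measured, had no member past 2-fold, and Krt19 was the lowest at -0.81. Of 21 retinoid genes, Dhrs4 was past 2-fold upward with the untreated array apart and Dhrs9 downward (1.44 to 0.28).

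**Figure D4:**
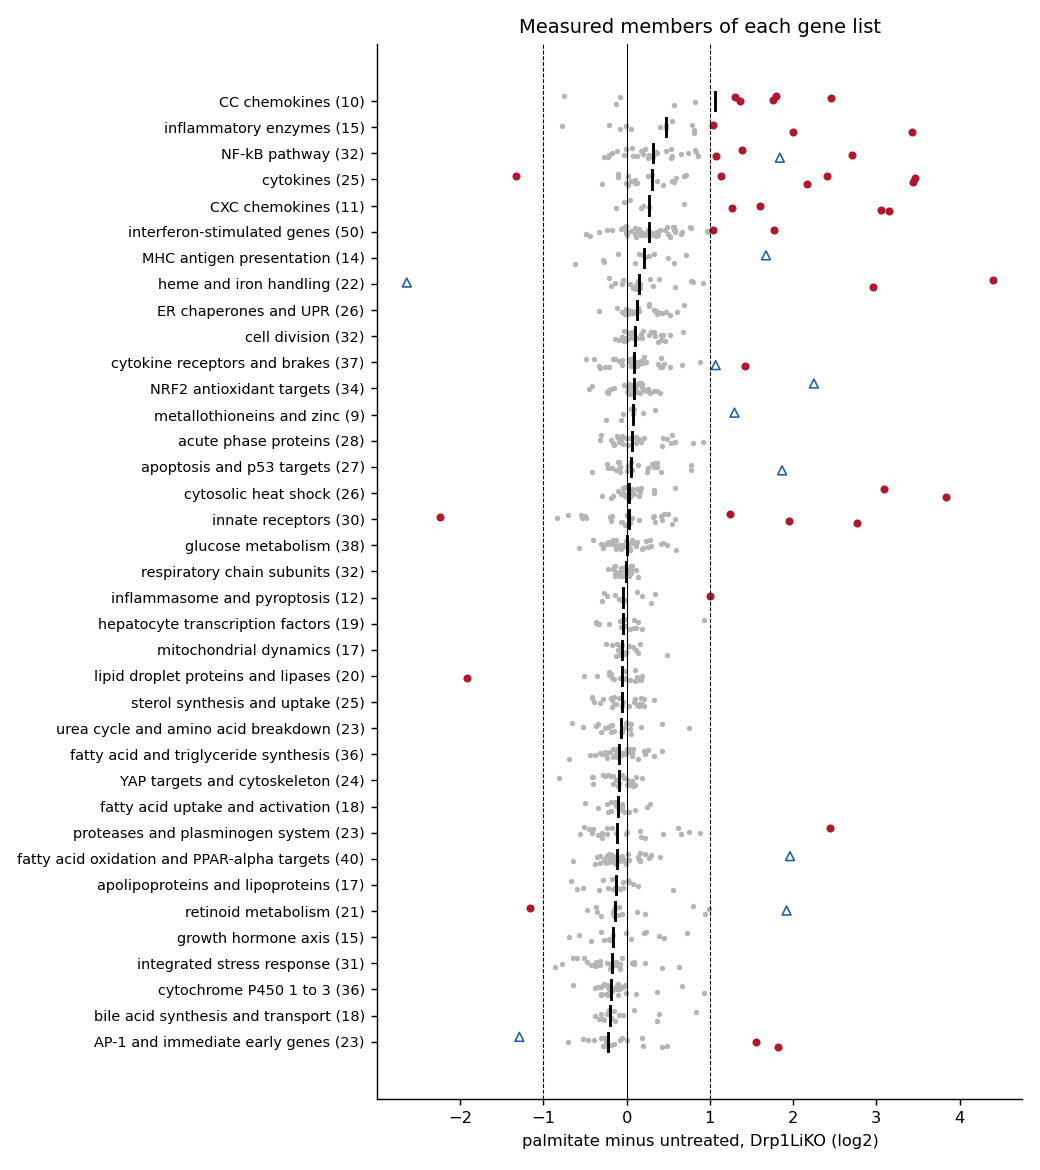
Palmitate minus untreated difference (log2, horizontal axis) of every measured member of each gene list in Drp1LiKO hepatocytes, 1 array per group; number of measured members in parentheses, black bar the list median, dashed lines 2-fold. Red dots are members past 2-fold and blue triangles those past 2-fold for which the untreated Drp1LiKO array stood apart. CC chemokines have the highest median (1.061) and respiratory chain genes lie between -0.225 and 0.135.

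Of the 893 genes measured over all lists other than cell type markers, 42 were past 2-fold upward and 6 downward. The untreated Drp1LiKO array stood apart for 8 of the 42 and 2 of the 6. The lists of cytokines, chemokines, their receptors, NF-kB, innate receptors, inflammasome, proteases and inflammatory enzymes held 28 of the 42. These lists have 195 of the 893 genes, of which 14.4% were past 2-fold upward, and the other lists have 698, of which 2.0% were, against 1.75% of all measured genes. The lists were chosen with earlier results of these data known.

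Genes for which the untreated Drp1LiKO array stood apart had, by that rule, the palmitate-treated Drp1LiKO array near both controls. Prmt1, an arginine methyltransferase, read 1.61 in untreated Drp1LiKO hepatocytes and 5.01 with palmitate, 10.6-fold higher, and 4.72 and 4.93 in control hepatocytes. A second Prmt1 probe showed the same order, at 0.44 and 3.77, with 3.77 and 3.70 in control hepatocytes. Dnajc7, a co-chaperone, read 1.50 and 4.02, 5.73-fold higher, with 3.94 and 3.95 in control hepatocytes, and its second probe differed by 2.34. For both genes 2 probes read low on the untreated Drp1LiKO array. Ccdc71 (5.95-fold) and Cyp39a1, an oxysterol hydroxylase (5.63-fold), followed the same pattern with 1 measured probe each. Of 28 such higher genes with a further measured probe, 7 were past 2-fold by that probe too, 13 had the same sign under 2-fold and 8 the opposite sign.

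The same held for many of the lower genes. Prrc2a read 0.88 in untreated and -2.51 in palmitate-treated Drp1LiKO hepatocytes, 10.5-fold lower, and -2.44 and -2.59 in control hepatocytes. Rab5c, a GTPase of early endosomes, read 3.87 and 1.16, 6.53-fold lower, with 1.13 and 1.32 in control hepatocytes. In both, 1 array of 4 was high and it was the untreated Drp1LiKO array. Pigt, a subunit of the GPI transamidase, differed by -1.88 by its brightest probe and by 0.73 in the opposite direction by a second probe. Of 12 such lower genes with a further measured probe, 2 were past 2-fold by that probe, 6 had the same sign and 4 the opposite sign. That array stood apart for 14 of the 25 largest downward differences among genes with a symbol and for 5 of the 25 largest upward ones.

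The position of spots was examined for all 4 arrays. On the untreated Drp1LiKO array 290 of 59305 probe spots stood apart as high and 179 as low, against 45 and 25 on the palmitate-treated Drp1LiKO array, 87 and 23 on the untreated control array and 105 and 21 on the palmitate-treated control array. With the rows cut into 3 equal bands, 197 of the 290 high spots lay in the last band, whereas the 179 low spots were spread as 62, 60 and 57 over the 3 bands. Among the genes past 2-fold with this array apart, 29 of 54 lower and 34 of 102 higher genes had their spot in the last band. With that band left out, 235 higher and 67 lower genes remained, and with the genes left out for which this array stood apart, 211 and 65. Their part in the differences was not tested.

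**Figure D5:**
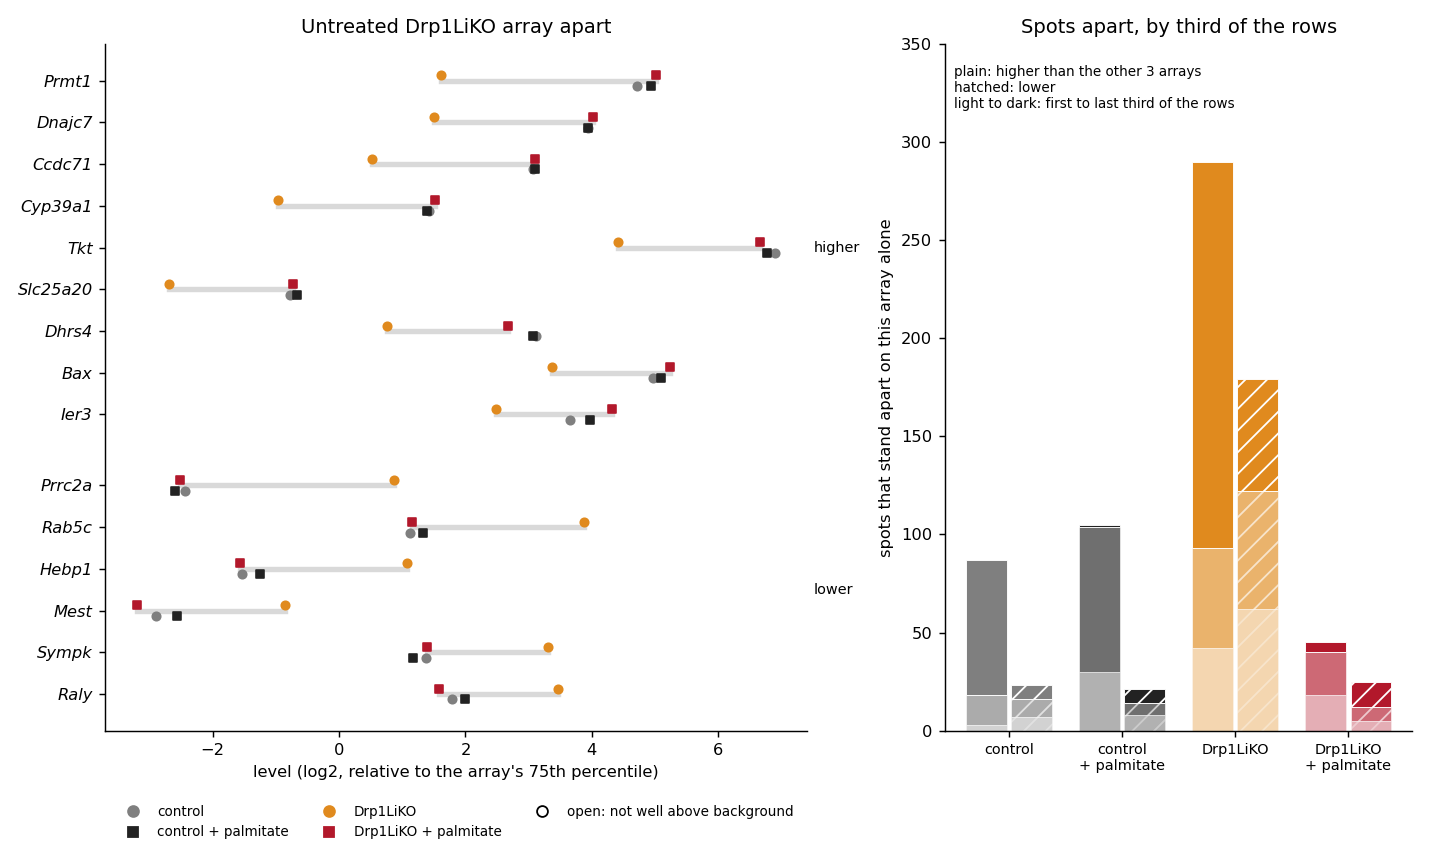
Left, levels on the 4 arrays (log2 relative to the 75th percentile of the array) of named genes for which the untreated Drp1LiKO array stood apart, symbols as for the stress genes. Right, number of probe spots that stood apart on 1 array alone, plain bars higher and hatched bars lower than the other 3 arrays, shaded from the first (light) to the last (dark) of 3 equal bands of rows. The untreated Drp1LiKO array (orange) has the most spots of either kind, 290 high and 179 low.

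Control hepatocytes gave a reference for the response without Drp1 deletion. Of the 313 higher genes, 238 were also measured on both control arrays: 46 were at least 2-fold higher there, 157 were higher by less, 35 had the opposite sign and none was 2-fold lower. The median difference of these 238 genes was 1.233 in Drp1LiKO and 0.447 in control hepatocytes. Of the 119 lower genes, 71 were measured in controls, where 3 were at least 2-fold lower, 41 lower by less, 25 opposite by less than 2-fold and 2 at least 2-fold higher. Their medians were -1.338 and -0.077. These genes were chosen for their difference in Drp1LiKO, so a smaller control difference follows in part from the choice, and with 1 array per group the genotypes were not tested against each other.

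Genes detected on 1 of the 2 Drp1LiKO arrays give only bounds. These were taken against the probe's own level on the other array or the lowest level well above background there, whichever was higher. With palmitate alone 543 genes were well above background, 271 of them (49.9%) by at least 2-fold, and without palmitate alone 1335 genes, 193 of them (14.5%) by at least 2-fold. The lowest level well above background was -4.941 on the untreated and -4.517 on the palmitate-treated Drp1LiKO array. This gap raises the upward bounds and lowers the downward ones, so the 2 shares cannot be compared. Besides Clec4e and S100a8, the 10 largest bounds upward included Hoxc5 (at least 9.23-fold) and Rhof (at least 6.63-fold). Downward they included Gsdmc (at least 20.2-fold), Trem2, Olfr503 (at least 16.4-fold) and Cd3d (at least 8.75-fold). For Gsdmc and Olfr503 the untreated Drp1LiKO array stood apart, and a second Gsdmc probe, well above background on both Drp1LiKO arrays, differed by 0.43 in the opposite direction. All 10 of the downward genes had 2 or more spots near theirs that were lit on the untreated Drp1LiKO array alone, with 8 beside Olfr503 and 8 beside Cd3d, against 3 of the 10 upward genes on the palmitate-treated array. Their part in these bounds was not tested.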

How the data were processed

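RNA of primary mouse hepatocytes was labelled with Cy3 and hybridised to 1-colour Agilent mouse arrays, 4 arrays in all. The deposited scanner files hold probe intensities from Agilent Feature Extraction (10.7.1.1 per the file headers, 9.5.1.1 per the labels), which the authors' software had background-subtracted but not normalized between arrays, with the array design placed on mm9. A deposited value table of the same 4 arrays holds quantile-normalized linear intensities and served as an alternative. The sources name TRIzol with an SV kit (labels) and RNeasy (methods) for RNA extraction, and the untreated control array shares its raw data with a sample of another series.

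From the deposited intensities, log2 values were computed relative to the 75th percentile of each array over non-control spots. Repeated spots were averaged, outlier spots were left out, and for each gene name the probe with the highest mean over the 4 arrays was kept. Genes whose probe was well above background on both Drp1LiKO arrays were compared, with 2-fold as the size counted. With 1 array per group no test was possible, and precision is limited by how few arrays there are. Bounds use the higher of the probe's own level on the dimmer array and the lowest level well above background there.

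Named genes were the 25 largest differences in each direction among genes with a symbol, up to 6 members past 2-fold in each direction of each of 45 lists, the 3 members of largest size where fewer than 3 passed, the 2 members with the highest level, the 10 largest bounds in each direction, and genes the study names. Other genes named were chosen after their values were seen. The comparison, the genes and the lists were chosen with earlier results of these data known. On simulated data with 17847 genes, 100 of 100 raised and 95 of 100 lowered genes were recovered and 0 others were called. The simulated palmitate array was a rescaled copy of the untreated Drp1LiKO array with noise the size of that between repeated spots. It held no variation between arrays or slides, so it cannot tell how often such variation takes a gene past 2-fold. Python 3.11.15, numpy 2.4.6, pandas 2.3.3, scipy 1.17.1, matplotlib 3.10.9, R 4.3.3 and limma 3.58.1 (normexp, offset 50) were used. Alternatives covered background correction, scaling, the filter on dim probes, the choice of probe and spots with lit neighbours. Results for some genes are not reported here.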

Additional observations from a re-analysis of the deposited data

Results flagged for a closer look

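Each group is 1 array, and the difference between the genotypes was not tested. For 10 of the named genes past 2-fold in Drp1LiKO hepatocytes, the difference with palmitate had the opposite sign in control hepatocytes. In 5 it was negative in Drp1LiKO and positive in control hepatocytes: Rab5c (-2.71 against 0.20), Hebp1 (-2.64 against 0.28), Mest (-2.33 against 0.34), Raly (-1.88 against 0.20) and Prr7 (-1.81 against 0.18). In the other 5 it was positive in Drp1LiKO and negative in control hepatocytes: Cyp39a1 (2.49 against -0.04), Tkt (2.25 against -0.12), Grhl1 (2.21 against -0.46), Dhrs4 (1.92 against -0.05) and Il17ra (1.07 against -0.02). With the normexp background correction Il17ra differed by 0.88 in Drp1LiKO, under 2-fold. For all of these but Grhl1 the untreated Drp1LiKO array stood apart from the other 3, and for Grhl1 the palmitate-treated Drp1LiKO array did. Where the untreated array stood apart, the rule itself holds the control difference under 0.7. Several control differences were also smaller than 0.192, the median gap between 2 probes of a gene. Their sign is therefore not read as an opposite response.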

How the results depend on the processing

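Against 313 higher and 119 lower genes, the normexp background correction left 137 and 47, all of them among the 313 and 119. Requiring a probe well above background on at least 1 of the 2 arrays gave 767 and 610 (55.7% higher, against 72.5%), and no filter gave 2452 and 1079. Requiring all 4 arrays left 238 and 71. In 2 alternatives chosen after seeing the data, 211 and 65 genes remained without those for which the untreated Drp1LiKO array stood apart, and 235 and 67 without spots in the last of 3 bands of rows. Other scalings, probe choices, outlier spots kept and the deposited value table gave 298 to 330 higher and 118 to 120 lower genes, and leaving out spots with lit neighbours gave 243 and 81. The cause of these changes was not tested, beyond the fewer or more genes that a filter itself leaves. Of 85 named genes past 2-fold, 63 stayed past it under every alternative run and 22 were under it in at least 1. None of these 85 genes changed sign. Smaller differences could change sign with the probes used, as for Hspa5 (0.42 by its brightest probe, -0.34 and -0.24 by its other probes). The median over all genes ranged from -0.003 to 0.212 over the alternatives, so the sign of a small median depends on the processing. The slide as a block was not run, since each slide holds 1 treatment. No paired analysis was possible because each group is 1 array. Genes near background give only bounds or uncertain sizes.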
